A study of Saccharomyces cerevisiae with 32 samples.

Results

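Budding yeast samples taken 60 min after release from alpha-factor were compared with samples of the same cultures at 0 min, when the cells were still held in G1 by the mating pheromone. All 8 arrays of these times, out of 32 in the series, entered the comparison, and all 6205 genes that passed the filter on dim probes were tested. The 60 min side held 2 arrays of 4P cells and 2 of WT cells, and the 0 min side held 2 of 4P and 2 of WT. 4P cells carried mutant, tagged forms of transcription factors of the S-phase network, which the series places under the kinase Cdk1. These were hcm1-15A-3HA, an activator of mitotic genes, and tos4-9A-3FLAG, beside the repressors of the early cell cycle box, which were yox1-9A-3V5 and yhp1-13A-13MYC. WT cells carried the normal proteins with the same tags, as HCM1-3HA and TOS4-3FLAG together with YOX1-3V5 and YHP1-13MYC. Both strains had spent 2 h in alpha-factor before the pheromone was washed out. Each genotype was 1 strain sampled as 2 time courses, and since the labels do not say how separate those cultures were, the spread between them may be technical. Each array also held, in its second channel, a common reference from growing mid-log cells with untagged HCM1, TOS4, YOX1 and YHP1. A level here is the log2 ratio of the synchronised sample over that reference, and a difference is the level at 60 min minus the level at 0 min.

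In a cells the peptide alpha-factor binds the receptor Ste2, and a G protein and a kinase cascade pass the signal to the transcription factor Ste12, which switches on genes for agglutination and fusion, while Far1 holds the cyclin kinase down in G1. Cells that reach G1 by dividing come through another programme: the forkhead and Mcm1 factors drive the mitotic CLB2 cluster, whose member Swi5 then takes part in turning on genes at the border of mitosis and G1 (M/G1). Mcm1 also acts there through the early cell cycle box, while the factors SBF and MBF turn on the next set of genes late in G1. The comparison thus sets cells near the end of a division against cells stopped before one.

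The labelled stages were first set against marker genes. The markers of pheromone-held cells (FUS1, FIG1, AGA1, PRM6 and ASG7) had mean levels from -0.64 to -0.45 on the arrays at 60 min, against 4.23 to 5.02 at 0 min. Markers of M/G1 (SIC1, EGT2, CTS1, ASH1 and PCL9) averaged -0.996 and -1.10 in 4P and -0.06 and 0.00 in WT at 60 min, against -2.27 to -2.01 at 0 min. CTS1 went against this mean and pulled it down at 60 min, at -4.44 to -3.71, against -2.37 to -1.55 at 0 min. SIC1, EGT2, ASH1 and PCL9 were each higher at 60 min. Markers of mitosis (CLB1, CLB2, SWI5 and CDC5) averaged 0.88 and 0.66 in 4P and 0.66 and 0.45 in WT at 60 min, against -2.21 to -1.96 at 0 min. By this mean the samples at 60 min still held mitotic transcripts above the mid-log reference, although CLB1 itself lay below it, at -0.67 to -0.36. Only the time of these samples, not a G1 stage, is therefore used as their name here. Markers of S phase (HTA1, HTB1, HHF1 and RNR1) were low at both times, from -2.07 to -1.81 at 60 min and from -1.57 to -1.04 at 0 min. The alpha-cell markers averaged -0.11 to 0.27 at 60 min and 0.02 to 0.79 at 0 min, and all 3 were above background on only 13 of the 32 arrays. Meiotic markers averaged -0.34 to -0.24 at 60 min and 0.12 to 0.24 at 0 min.

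Of the 6205 genes, 723 (11.7%) were called higher at 60 min and 772 (12.4%) lower, at an adjusted p of 0.05 in limma for the mean of both genotypes. At least 2-fold differences among those calls numbered 107 higher (1.72%) and 91 lower (1.47%). The median standard error (SE) of a difference was 0.11 log2 units, and 8 arrays limit what smaller differences could be called. The counts depended on the processing and the arrays. Both rose when the 4P replicate 1 arrays at 15 and 105 min, which had many outlier spots, were left out, a choice made after seeing the data. Under several other alternatives the counts were lower. They were 366 higher and 388 lower with the scanner's log ratio, 359 and 396 with the authors' deposited table, 407 and 384 with the 8 arrays alone, and 419 and 399 without WT replicate 2. The arrays of WT replicate 2 were the only pair of a course that lay on different slides. They were also the only pair that differed in scan setting. By its intensities the 0 min array was an extended-range scan, with 0 saturated spots in the synchronised channel. The 60 min array was not, and had 93. Slide and scan setting cannot be told apart in this pair. On 8 arrays, 94.8% to 99.0% of spots were well above background. Replicates correlated across genes at r = 0.768 for 4P and 0.833 for WT at 60 min, and at 0.791 for 4P and 0.835 for WT at 0 min.

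Most of the large differences were departures from mid-log cells at 0 min. Among the genes at least 2-fold higher at 60 min, the median level was 0.53 at 60 min and -1.23 at 0 min, and 79 of the 106 with both means lay farther from the reference at 0 min. Among the genes at least 2-fold lower, the median level was -0.27 at 60 min and 1.36 at 0 min, and 70 of 90 lay farther from the reference at 0 min. A call was also made in each genotype by itself for 106 of the 107 genes that were higher and 87 of the 91 that were lower. Over all genes, 14.2% were called in 4P and 10.5% in WT. The sets were chosen by the mean of the same arrays, so these counts are a description and not separate support.

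**Figure D1:**
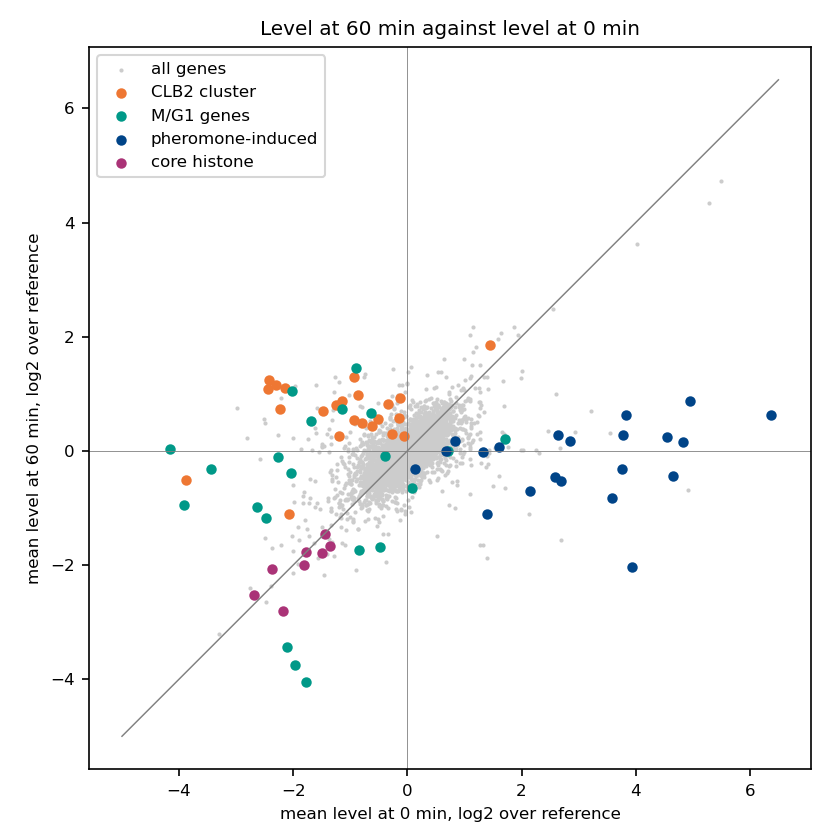
Each point is a gene, with its mean level over 4 arrays at 60 min on the vertical axis and at 0 min on the horizontal axis, both as log2 ratios over the mid-log reference; the diagonal marks equal levels. Pheromone-induced genes lie far right of the diagonal near a level of 0 at 60 min, CLB2 cluster genes lie above it, and the 8 core histone genes lie low on both axes.

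All 22 tested genes of the pheromone-induced list were called lower at 60 min (against 12.4% of all genes), 19 of them at least 2-fold, with a median difference of -3.21 against -0.00 over all genes. The same 22 were called lower under every alternative that was run. AGA1, the anchor subunit of a-agglutinin, had levels of -2.11 and -2.18 in 4P and -2.08 and -1.77 in WT at 60 min, against 4.10 and 3.24 in 4P and 3.98 and 4.42 in WT at 0 min. That is a difference of -5.97 (SE 0.17, adjusted p = 3.0e-16), with a saturated spot on 1 of the 4 arrays at 0 min. At 60 min it was below the level of mid-log cells on every array. PRM6, a potassium transporter gene named for its regulation by pheromone, stood at 0.69 and 0.88 in 4P and 0.44 and 0.52 in WT at 60 min, against 6.91 and 5.93 in 4P and 5.85 and 6.80 in WT at 0 min. FIG2, an adhesin of mating cells, had levels between -0.48 and -0.35 on the arrays at 60 min, against 4.01 to 5.26 at 0 min. Every array at 60 min lay below every array at 0 min for these genes, as for all 21 in the list with values on all 8 arrays, against 9.21% of the 6168 such genes.

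The genes for cell fusion and nuclear fusion fell with them. FUS1, which acts at the site of cell fusion, was at -0.79 and -0.80 in 4P and -1.07 and -0.68 in WT at 60 min, against 3.66 and 3.42 in 4P and 3.65 and 3.63 in WT at 0 min, which is 21.4-fold lower (difference -4.42, SE 0.11, adjusted p = 9.0e-18). FUS2 differed by -4.07, PRM1, needed for membrane fusion, by -3.49, and FIG1, a membrane protein of mating cells, by -4.30. KAR4, the partner of Ste12 at genes for nuclear fusion, differed by -4.09, KAR5 by -3.04 and PRM3, a nuclear envelope protein, by -4.66. PRM2 differed by -4.68 on 7 arrays, without a value for WT replicate 2 at 0 min. Levels of FUS2 at 60 min, 0.96 and 1.03 in 4P and 0.86 and 0.67 in WT, were still above those of mid-log cells.

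Members of the list that act in signalling or arrest were lower by various amounts. SST2, the regulator that shuts the G protein off, differed by -2.85, the kinase gene FUS3 by -2.50, the phosphatase gene MSG5 by -0.68 and GPA1, the G-alpha subunit, by -0.67. STE12 itself differed by -0.45. FAR1, the inhibitor that holds cells in G1, had levels of -0.26 and -0.41 in 4P and 0.24 and 0.36 in WT at 60 min, against 1.54 and 1.03 in 4P and 1.45 and 1.32 in WT at 0 min (difference -1.35, SE 0.15, adjusted p = 5.4e-07). Its mean levels in between were far lower, -3.30 in 4P and -3.27 in WT at 30 min. At 60 min FAR1 had thus come back from a trough, and it lay above its level at 45 min, -2.72 in 4P and -2.24 in WT.

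**Figure D2:**
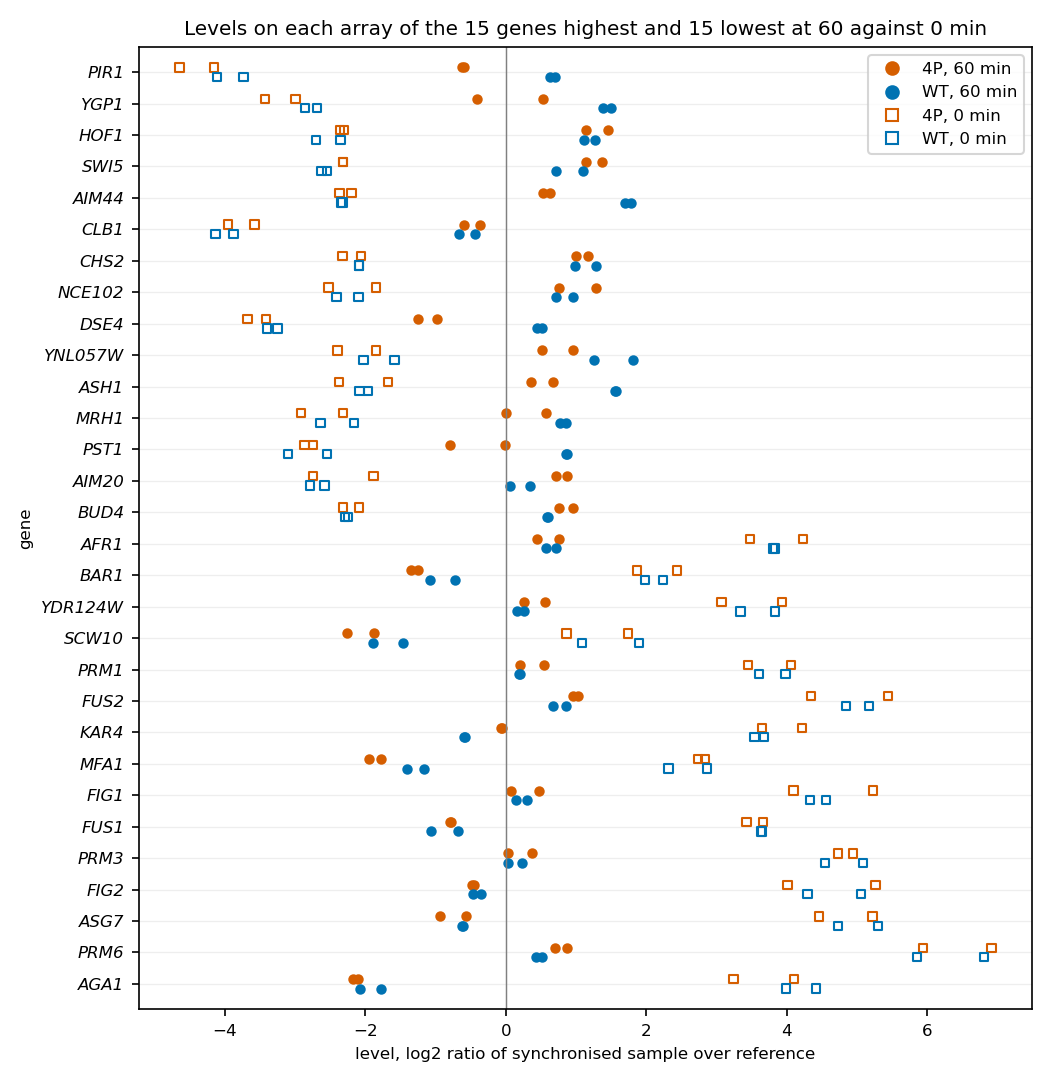
Levels of the 15 genes with the largest positive and the 15 with the largest negative differences on each of the 8 arrays, as log2 ratios over the mid-log reference; filled circles are 60 min, open squares 0 min, orange 4P and blue WT. In every row the circles and squares do not overlap, where the rows were chosen by that difference. Of the genes shown, only AIM44 was called for a difference between the changes of the genotypes.

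The 7 genes specific to a cells were all called lower as well (against 12.4% of all genes), with a median difference of -2.35. ASG7, which restrains the pheromone signal after mating, differed by -5.61 and stood between -0.94 and -0.57 at 60 min, against 4.46 to 5.29 at 0 min. MFA1, a precursor gene of the a-factor pheromone, differed by -4.26, BAR1, the protease that cleaves alpha-factor, by -3.23, and AGA2, the binding subunit of a-agglutinin, by -2.35. The receptor gene STE2 had levels of -0.61 and -1.14 in 4P and -0.55 and -0.72 in WT at 60 min, against 1.16 and 1.11 in 4P and 1.03 and 1.10 in WT at 0 min (difference -1.85, SE 0.14, adjusted p = 2.1e-09). The a-factor exporter gene STE6 changed least, by -0.64. The list did not simply decay after release: its mean level was 2.26 and 1.92 in the 4P courses and 1.91 and 2.19 in the WT courses at 0 min, between -2.34 and -2.21 at 30 min in all 4 courses, and at 60 min back at -0.86 and -1.08 in 4P and -0.47 and -0.61 in WT. ASG7, like SCW10, had a saturated spot on 1 array at 0 min, where the scanner gives a bound on the signal.

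Of 14 genes that carry the signal or regulate Ste12, 5 were called lower (against 12.4% of all genes), 0 were called higher, 9 were not called, and the median difference was -0.05. DIG2, an inhibitor of Ste12, gave the largest value, with levels of -0.20 and -0.13 in 4P and 0.18 and 0.18 in WT at 60 min, against 2.00 and 1.99 in 4P and 1.99 and 1.96 in WT at 0 min (difference -1.98, SE 0.09, adjusted p = 2.5e-13). Its homologue DIG1 differed by 0.34 in the other direction and was not called (adjusted p = 0.16). STE18, the G-gamma subunit, differed by -0.75 and CDC42, the polarity GTPase, by -0.55. Without WT replicate 2, 2 of the 14 were called. The scaffold and kinase genes STE5, STE20, STE11 and STE7 were between -0.12 and 0.24 and were not called.

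The mitotic CLB2 cluster showed the opposite pattern. Of its 23 genes, 22 were called higher at 60 min (against 11.7% of all genes), 18 of them at least 2-fold, with a median difference of 1.47, and 21 to 23 were called under each alternative. HOF1, which acts at the bud neck in cytokinesis, had levels of 1.45 and 1.15 in 4P and 1.27 and 1.11 in WT at 60 min, against -2.36 and -2.31 in 4P and -2.35 and -2.70 in WT at 0 min, which is 12.8-fold higher (difference 3.67, SE 0.17, adjusted p = 2.5e-13). SWI5, the M/G1 activator, stood at 1.37 and 1.15 in 4P and 1.10 and 0.72 in WT at 60 min, against -2.31 and -2.32 in 4P and -2.55 and -2.62 in WT at 0 min (difference 3.53). The arrays at 60 min all lay above those at 0 min for 22 of the 23 genes, against 9.05% of all genes.

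The other large differences of the cluster were in cyclins and in genes of the bud neck and septum. CLB1 differed by 3.37 and CLB2 by 2.24 (SE 0.14, adjusted p = 2.4e-11), and the Polo kinase gene CDC5 differed by 2.05. CHS2, which makes the primary septum, differed by 3.25 and BUD4, which marks the axial bud site, by 2.96. SPO12 was not called, with a difference of 0.40. In the courses the mean of the cluster was about as high at 45 min, 0.60 and 0.61 in 4P and 0.88 and 0.77 in WT, as at 60 min, 0.71 and 0.66 in 4P and 0.72 and 0.59 in WT, and it had dropped to between -0.62 and -0.40 by 75 min. In bulk RNA such levels cannot tell more cells in mitosis from more transcript in each cell.

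**Figure D3:**
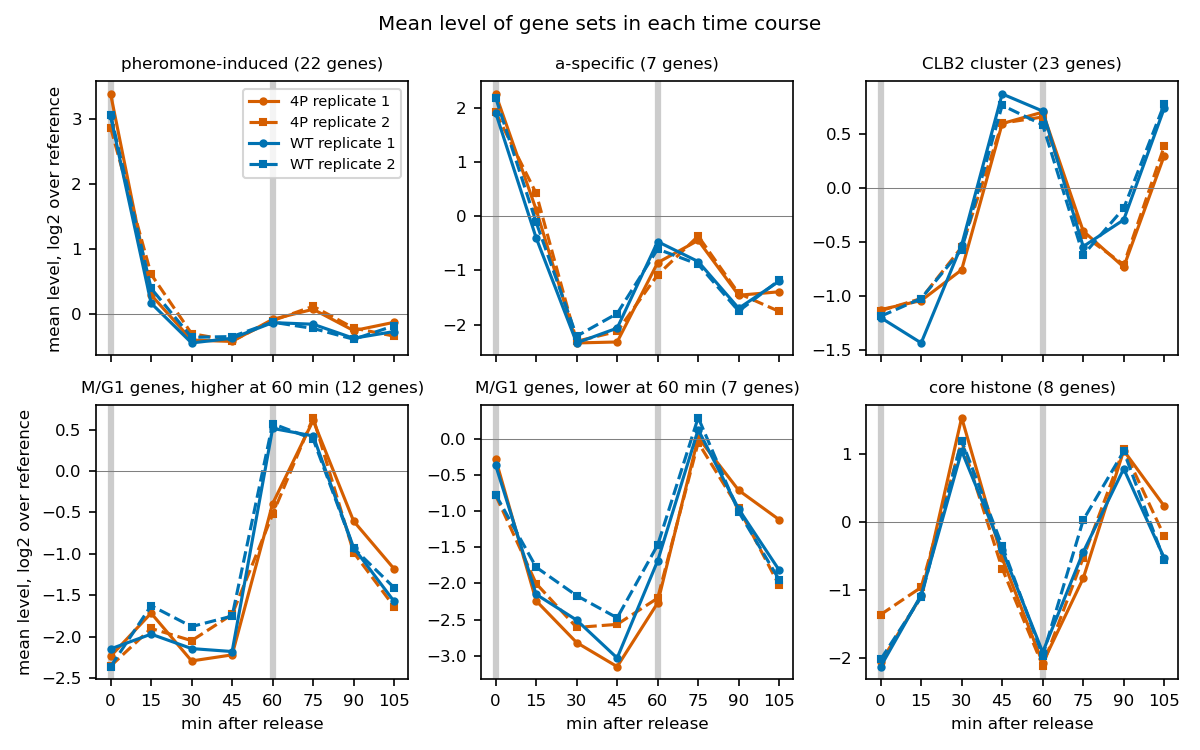
Mean level of 6 gene sets over time in each course, as log2 ratios over the mid-log reference; orange is 4P and blue WT, solid lines replicate 1 and dashed lines replicate 2, and grey bands mark 0 and 60 min. The M/G1 set was divided by the call at 60 against 0 min, so that its level at those times is a description; in both divisions the level rises between 45 and 75 min.

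The genes known to be turned on at M/G1 divided. Of 21 tested, 12 were called higher at 60 min, all at least 2-fold, and 7 were called lower, 5 of them at least 2-fold. Over all genes, 11.7% were called higher and 12.4% lower. Under the alternatives, 12 or 13 were called higher and 6 to 8 lower. PIR1, a cell wall protein, gave the largest positive difference of any gene: its levels were -0.60 and -0.62 in 4P and 0.62 and 0.70 in WT at 60 min, against -4.15 and -4.64 in 4P and -3.73 and -4.11 in WT at 0 min (difference 4.19, SE 0.23, adjusted p = 8.2e-12, 18.2-fold higher). ASH1, a repressor of mating-type switching in daughter cells, differed by 3.06, and DSE4, a glucanase of daughter cells, by 3.12. EGT2, which acts in cell separation, stood at -1.55 and -1.67 in 4P and -0.40 and -0.20 in WT at 60 min, against -4.04 and -3.91 in 4P and -3.75 and -3.96 in WT at 0 min (difference 2.96). SIC1, the inhibitor of B-type cyclin kinase, was at 0.11 and 0.55 in 4P and 1.07 and 1.24 in WT at 60 min, against -1.28 and -0.98 in 4P and -1.11 and -1.25 in WT at 0 min (difference 1.89, SE 0.10, adjusted p = 2.3e-12).

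The 7 genes called lower included genes for the parting of mother and daughter. CTS1, the chitinase that frees the daughter, had levels of -4.44 and -4.30 in 4P and -3.71 and -3.74 in WT at 60 min, against -1.56 and -1.55 in 4P and -1.61 and -2.37 in WT at 0 min (difference -2.28, SE 0.23, adjusted p = 2.2e-07). DSE1 differed by -1.77 and DSE2, another glucanase gene of daughter cells, by -1.31. The cyclin gene PCL2 differed by -1.49, AMN1, which turns mitotic exit off, by -1.20, CHS1, a chitin synthase gene, by -0.72 and TEC1, the partner of Ste12 in filamentation, by -0.72. These 7 had a mean level of -0.78 to -0.28 in the 4 courses at 0 min, -3.15 to -2.48 at 45 min, -2.27 and -2.20 in 4P and -1.69 and -1.47 in WT at 60 min, and -0.05 to 0.29 at 75 min. The 12 called higher were at -2.36 to -2.15 at 0 min and at -2.22 to -1.73 at 45 min. They stood at -0.39 and -0.52 in 4P and 0.51 and 0.57 in WT at 60 min, then at 0.61 and 0.64 in 4P and 0.42 and 0.38 in WT at 75 min. CTS1 itself averaged -1.15 in 4P and -0.31 in WT at 75 min, above its levels at 0 min, -1.55 in 4P and -1.99 in WT.

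Of 11 genes of the early cell cycle box, which are genes bound by Mcm1 at M/G1, 6 were called higher and 0 lower. Their median difference was 0.63 (0.36 in 4P and 0.74 in WT), and the shares over all genes were 11.7% higher and 12.4% lower. CDC6, which loads the replicative helicase onto origins, stood at 1.25 and 1.29 in 4P and 1.66 and 1.58 in WT at 60 min, against -1.06 and -0.62 in 4P and -0.93 and -0.97 in WT at 0 min (difference 2.34, SE 0.10, adjusted p = 6.3e-14, 5.07-fold higher). Of the helicase subunits, MCM7 differed by 1.17, MCM2 by 0.78, MCM6 by 0.65 and MCM4 by 0.63, while MCM3 at 0.43 and MCM5 at -0.10 were not called. The MCM5 value is the mean of a negative change in 4P and a positive one in WT (4P minus WT -1.02). That difference is given with its limits further below. The regulators of G1 commitment in this list gave small differences, which do not show equal levels. The cyclin gene CLN3 differed by 0.16 and SWI4, the DNA-binding subunit of SBF, by 0.27 (adjusted p = 0.054). WHI5, the repressor of SBF, differed by -0.03, but was well above background on only 3 of 4 arrays at 60 min and 1 of 4 at 0 min. Among 11 genes for the origin recognition complex and origin firing, 0 were called higher and 2 lower, CDC45 by -0.64 and ORC5 by -0.30.

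The MBF-type genes had a mean level of -0.76 and -0.51 in 4P and -0.37 and -0.29 in WT at 60 min, against -0.30 and -0.10 in 4P and -0.44 and -0.35 in WT at 0 min. The SBF-type genes averaged -1.14 and -1.14 in 4P and -0.84 and -0.71 in WT at 60 min, against -0.91 and -0.62 in 4P and -0.80 and -0.78 in WT at 0 min. Of 28 MBF-type genes, 3 were called higher and 8 lower (median -0.19), and of 16 SBF-type genes, 3 were called higher and 5 lower (median -0.16). Over all genes, 11.7% were called higher and 12.4% lower, so the MBF-type count of higher genes lay near that share. RNR1, the large subunit of ribonucleotide reductase, had levels of -1.70 and -1.58 in 4P and -1.32 and -1.24 in WT at 60 min, against -0.22 and -0.44 in 4P and -0.20 and -0.47 in WT at 0 min (difference -1.13, SE 0.17, adjusted p = 3.0e-05). POL12 and MSH6, for replication and mismatch repair, each differed by -0.66, and MCD1, the cohesin cleaved at anaphase, by 0.66 the other way. Without WT replicate 2, 5 of the MBF-type genes were called lower. The G1 cyclins of SBF parted: CLN2 differed by -0.77 (SE 0.17, adjusted p = 0.0023), with levels of -1.67 and -1.16 in 4P and -1.43 and -0.98 in WT at 60 min, against -0.78 and -0.48 in 4P and -0.48 and -0.42 in WT at 0 min. CLN1 differed by 0.52 (SE 0.16, adjusted p = 0.023), but its levels at the 2 times overlapped in 4P, though not in WT. They were -1.52 and -1.02 in 4P and -0.76 and -0.79 in WT at 60 min, against -1.70 and -1.06 in 4P and -1.77 and -1.62 in WT at 0 min. CLN1 was not called for a difference between the genotypes. Both cyclins were far higher at 15 min, where CLN1 averaged 2.21 in 4P and 2.15 in WT.

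The 8 core histone genes were at the floor of the cycle in both kinds of sample. Their mean level was -2.07 and -2.11 in 4P and -1.91 and -1.96 in WT at 60 min, against -2.06 and -1.36 in 4P and -2.12 and -2.02 in WT at 0 min. At 30 min the mean was between 1.04 and 1.53. Only HTB1 was called (difference -0.31, adjusted p = 0.027), where 24.1% of all genes were called in either direction. HTA1 differed by -0.64 (95% interval -1.17 to -0.11, adjusted p = 0.073). On its 0 min arrays, 4P replicate 2 stood at -1.54 and the others at -2.45 to -2.25.

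**Figure D4:**
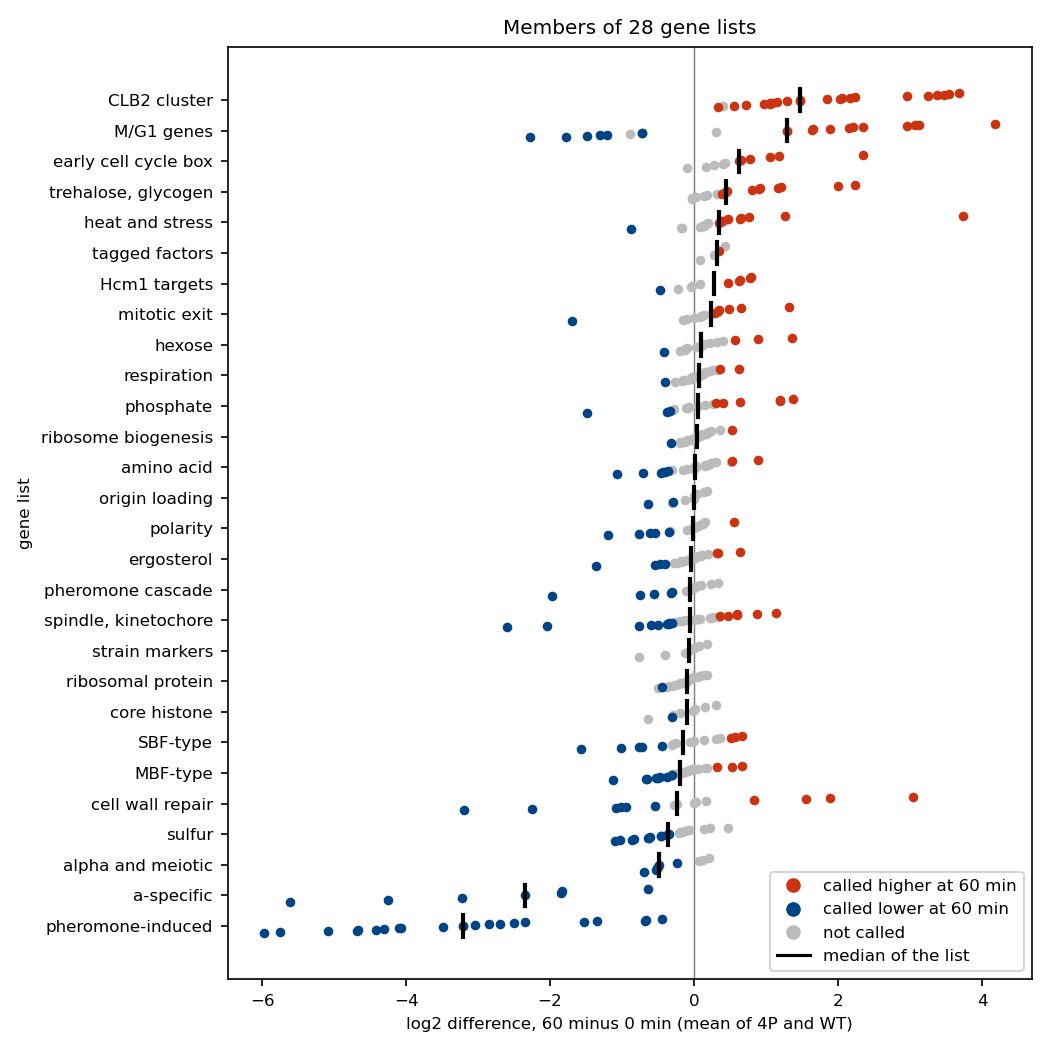
Differences between 60 and 0 min (mean of 4P and WT, log2 scale) of the tested members of 28 gene lists, ordered by the median of the list (black bar); red points were called higher, blue lower and grey were not called. The pheromone-induced and a-specific lists lie at the bottom with medians of -3.21 and -2.35, and the CLB2 cluster and the M/G1 list at the top with medians of 1.47 and 1.30.

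Outside the cell cycle, genes of storage sugars were higher at 60 min. Of 17 genes for trehalose and glycogen, 11 were called higher and 0 lower, with a median difference of 0.44. Over all genes, 11.7% were called higher and 12.4% lower. TSL1, a subunit of trehalose synthase, had levels of -0.08 and -0.17 in 4P and 0.68 and 0.46 in WT at 60 min, against -2.10 and -2.05 in 4P and -1.80 and -2.10 in WT at 0 min (difference 2.23, SE 0.16, adjusted p = 3.6e-10, 4.71-fold higher). The glycogen synthases GSY1 and GSY2 differed by 2.00 and 1.21, and the trehalose phosphatase gene TPS2 by 1.17. The mean of the list lay between -0.80 and -0.69 at 0 min, at 0.54 and 0.49 in 4P and 0.29 and 0.17 in WT at 15 min, and at -0.26 and -0.18 in 4P and 0.07 and 0.11 in WT at 60 min. The glucose kinases GLK1 and HXK1 differed by 1.36 and 0.89, while 11 of 15 genes for hexose uptake and phosphorylation were not called. Of 20 heat and stress genes, 9 were called higher and 1 lower, and 4 were called higher without the replicate block or without WT replicate 2. YGP1, a secreted glycoprotein of starved cells, stood out at 0.52 and -0.41 in 4P and 1.39 and 1.502 in WT at 60 min, against -3.42 and -2.99 in 4P and -2.86 and -2.69 in WT at 0 min (difference 3.74). The heat shock gene HSP26 was lower, by 0.88 on the log2 scale (difference -0.88), and HSP12 at -0.16 was not called.

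Cell wall genes went both ways. Of 15 genes of the cell wall repair list, 4 were called higher (against 11.7% of all genes) and 6 lower (against 12.4%). The lower ones were led by PRM5, a target of the cell integrity kinase, with levels of -0.63 and -0.28 in 4P and -0.62 and -0.44 in WT at 60 min, against 2.66 and 2.64 in 4P and 2.67 and 2.83 in WT at 0 min (difference -3.20, SE 0.13, adjusted p = 2.7e-14). GSC2, the stress-induced glucan synthase, differed by -2.25, SLT2, the kinase of the cell integrity pathway, by -1.01, and RLM1, its transcription factor, by -0.54. The other lower members were YPS1, a cell surface protease gene, at -1.09 and the chitin synthase gene CHS3 at -0.94. Of the higher ones, PST1 differed by 3.04, NCW2 by 1.89, CIS3 by 1.55 and SED1 by 0.84. PST1 had levels of -0.01 and -0.80 in 4P and 0.86 and 0.87 in WT at 60 min, against -2.87 and -2.75 in 4P and -2.54 and -3.10 in WT at 0 min.

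Spindle and mitotic exit genes held a pair that was far lower at 60 min, and the cause was not tested. CIK1 and KAR3 encode a kinesin complex used both in the spindle and in the joining of nuclei after mating. CIK1 had levels of 0.47 and 0.64 in 4P and 0.06 and 0.18 in WT at 60 min, against 3.17 and 3.01 in 4P and 2.61 and 2.93 in WT at 0 min (difference -2.59), and KAR3 differed by -2.04. In all, 6 of 26 spindle and kinetochore genes were called higher, led by NUF2 at 1.13 and TUB1 at 0.88, and 9 lower, of which 4 were called without WT replicate 2. Of 15 genes for mitotic exit and the Cbk1 kinase pathway, 6 were called higher, led by MOB1 at 1.32, and 2 were without WT replicate 2. HYM1, which acts with Cbk1, was the only member called lower, with levels of -0.12 and 0.25 in 4P and -0.01 and 0.11 in WT at 60 min, against 1.67 and 1.83 in 4P and 1.66 and 1.86 in WT at 0 min (difference -1.70, SE 0.10, adjusted p = 5.5e-12). Of 17 polarity genes, 5 were called lower, AXL2, the axial bud-site receptor, by -1.20 and AXL1, which also processes a-factor, by -0.77, and CLA4 at 0.55 was higher. Of 10 targets of Hcm1, 5 were called higher and 1 lower, among them the mitotic regulators NDD1 at 0.79 and FKH1 at 0.78. For each of these lists the shares over all genes were 11.7% higher and 12.4% lower.

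Nutrient genes differed by smaller amounts. Of 21 sulfur genes, 11 were called lower and 0 higher (median -0.36), with STR3 at -1.09, the transporter gene MMP1 at -1.02, the methionine synthase gene MET6 at -0.86 and the permease gene MUP1 at -0.83. Without WT replicate 2, 5 of them were called. Of 17 phosphate genes, 6 were called higher and 3 lower. The acid phosphatases PHO3, PHO12 and PHO11 differed by 1.37, 1.20 and 1.19, where PHO11 and PHO12 are near-identical copies whose probes may share signal, and PHM6 differed by -1.49. Of 24 amino acid genes, 2 were called higher and 6 lower, led by ARG4 of arginine synthesis at -1.07. Of 23 ergosterol genes, 3 were called higher and 4 lower, led by ERG24 at -1.36. Over all genes, 11.7% were called higher and 12.4% lower, so the ergosterol counts lay near those shares.

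Growth and respiration genes gave few calls, where 11.7% of all genes were called higher and 12.4% lower. Of 24 ribosomal protein genes, 0 were called higher and 1 lower, RPL39 at -0.44, with the list between -0.50 and 0.19, and without 4P replicate 1 the number called lower was 5. Of 25 ribosome biogenesis genes, 1 was called in each direction, NOP1 at 0.53 and NOC3 at -0.33. Of 23 respiration genes, 2 were called higher and 1 lower. Of 9 alpha-specific and meiotic genes, 0 were called higher and 6 lower, by -0.70 (IME1) to -0.23 (SPO11). Among the tagged factors themselves, YHP1 differed by 0.35 (adjusted p = 0.014), while YOX1 at 0.43, HCM1 at 0.27 and TOS4 at 0.09 were not called. The 7 tested genes that differ or may differ between laboratory strains, among them LEU2 and HIS3, gave 0 calls at an adjusted p of 0.05 in limma and 1 at that value unadjusted, LEU2, which differed by -0.77 (adjusted p = 0.11).

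The change was then compared between the genotypes. In 4P 879 genes (14.2%) were called, 398 higher and 481 lower, and in WT 649 genes (10.5%), 341 higher and 308 lower, with the reference channel and the estimate of spread shared between them. These counts fell to 198 higher and 215 lower in 4P without 4P replicate 2, and in WT to 161 and 115 without WT replicate 2 and to 211 and 167 with the slide as a block. The difference between the changes, tested directly, was called for 5 genes (0.0806%), all with a smaller value in 4P. MLO50 (YLR049C) differed between 60 and 0 min by 1.22 in 4P and by 2.81 in WT (difference of the changes -1.59, SE 0.27, adjusted p = 0.0464). PIG1, a likely regulatory subunit of glycogen synthesis, changed by -0.43 in 4P and 1.04 in WT. AIM44, which acts at the bud neck, changed by 2.86 in 4P and 4.07 in WT. MCM5 changed by -0.61 in 4P and 0.41 in WT, and SPT21, which acts at histone genes, by 0.06 in 4P and 0.99 in WT.

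The levels of these genes are given as a description, since the test that chose them used the same arrays. PIG1 stood at -0.16 and -0.47 in 4P and 1.21 and 1.15 in WT at 60 min, against 0.19 and 0.05 in 4P and 0.09 and 0.18 in WT at 0 min. At 75 min it averaged 0.93 in 4P and 1.03 in WT. MLO50 averaged 1.68 in 4P and 0.99 in WT at 75 min, and AIM44 averaged 1.31 in 4P and 0.47 in WT. All 5 had the adjusted p of 0.0464, and none was called without the replicate block, with the 8 arrays alone, with the scanner's log ratio, with median centring, with the authors' deposited table, or without any 1 of the courses. With the slide as a block MLO50 alone was called (adjusted p = 0.0205). The 0 min array of WT replicate 2 shared a slide with both arrays of 4P replicate 1, but at 60 min each array lay on a slide of its own, so slide and genotype cannot be told apart there.

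**Figure D5:**
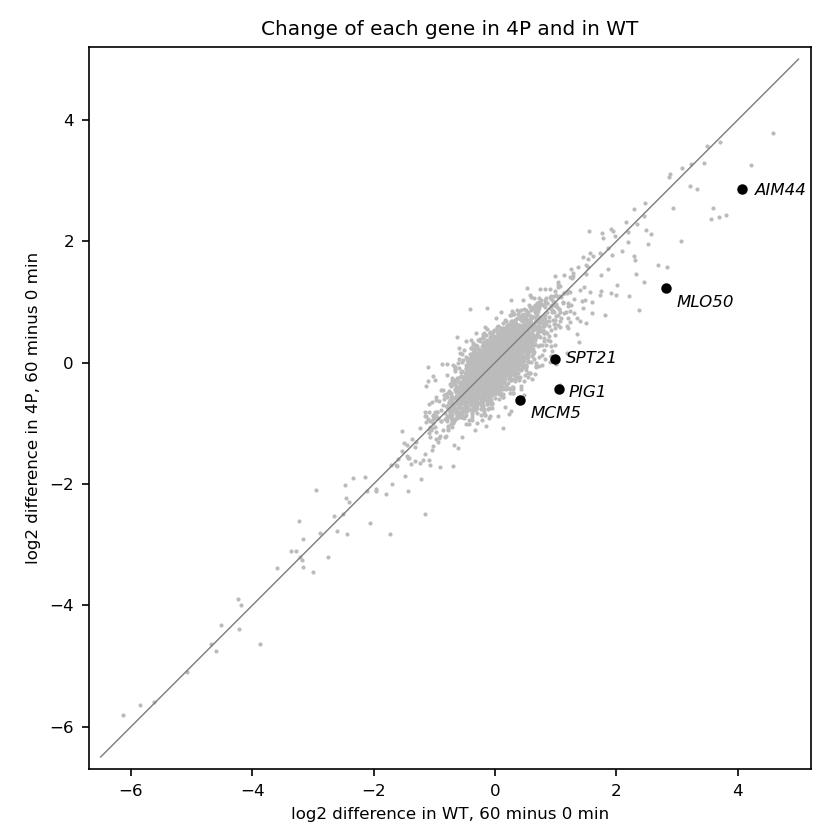
Each point is a gene, with its difference between 60 and 0 min in 4P on the vertical axis and in WT on the horizontal axis (log2 scale); the line marks equal changes. The 5 labelled genes, called for a difference between the genotypes, all lie below the line, PIG1 and MCM5 with a negative change in 4P and a positive one in WT.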

How the data were processed

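RNA of 32 Agilent 2-colour arrays was measured in 16 groups of 2, of which 8 arrays at 60 and 0 min are compared here. Per the submitters' processing notes the scanner files come from Agilent Feature Extraction, version 10.7.1.1. Per the file headers they give median intensity and local background of each channel, not logged, and the scanner's own log10 ratio (red divided by green). The authors' deposited table holds log2 values with column medians of -0.04 to 0.02, and its columns tracked the scanner's ratio (synchronised over reference) at r = 0.961 to 0.999. Its normalisation and centring are not given in the sources used here. Per the labels, replicate 1 carried the synchronised sample in Cy3 and replicate 2 in Cy5.

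Background was corrected with normexp (offset 50) and arrays were normalised by loess in limma 3.58.1 under R 4.3.3, with control and outlier-marked spots at weight 0 and outlier-marked spots then set missing. Spots were averaged per probe and probes per gene (29 genes had several). A probe was kept if the synchronised channel was well above background on all arrays of at least 1 group, which left 6236 probes and 6205 genes. Of 6225 names, 5737 matched RefSeq R64 and 488 kept the array's name; the array's genome build is an older one and no coordinates are given.

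The fit held all 32 arrays as 16 group means, with the time course (genotype and replicate number) as a block, 14 residual and 6.91 prior degrees of freedom, and Benjamini-Hochberg adjustment over 6205 genes at 0.05. Since 60 and 0 min of a course share culture and dye, the dye and the reference cancel in the difference. Deviations at 60 and 0 min of the same number correlated at r = 0.165 in 4P and 0.248 in WT. In 3 of the 4 courses both times lay on 1 slide, so those courses' differences are within-slide values. Genes named are the 15 largest differences each way with the same sign in all 4 courses, the 4 largest in each of 28 lists (473 of 475 entries tested), a set of cell cycle genes, and genes called for a genotype difference; further list members and neighbours were named after their values were seen. The comparison, rule and lists were chosen with earlier results of these data known, so list counts are descriptions beside the share over all genes.

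Alternatives were the fit without the replicate block, the 8 arrays alone, the scanner's log ratio, median centring, the deposited table, no filter, a stricter filter (well above background on all 8 arrays), the slide as a further block, and each course left out. Leaving out 2 arrays of 4P replicate 1 with many outlier spots, those at 15 and 105 min, was added after seeing the data.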

Additional observations from a re-analysis of the deposited data

Results flagged for a closer look

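Within-course differences between 60 and 0 min were checked for a course far from the other 3 in the 141 named genes with values in all 4 courses. Chance alone marks about 1 gene in 20 and 6 were marked, so the number is no more than chance gives for independent genes. Genes of shared lists are not independent, and HHT2, HTB2, CDC42 and PRM5 were all marked in 4P replicate 2. The number therefore does not show that these marks arose by chance. HHT2, a histone H3 gene, differed by -1.15 in 4P replicate 2 and by -0.01 to -0.00 in the other courses. HTB2, a histone H2B gene, differed by -0.61 in 4P replicate 2, against 0.50 to 0.69 in the others. CDC42 differed by -1.24 in 4P replicate 2, against -0.39 to -0.25. PRM5 differed by -2.93 in 4P replicate 2, against -3.29 to -3.27. YHP1 differed by 0.59 in WT replicate 2, against 0.24 to 0.29, and STE18 by -0.22 in WT replicate 1, against -0.96 to -0.87. The array of 4P replicate 2 at 0 min had a mean core histone level of -1.36, against -2.12 to -2.02 on the other arrays at 0 min.

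The change between 60 and 0 min differed between the genotypes, by the test of the difference itself, for MLO50 (-1.59), PIG1 (-1.48), AIM44 (-1.21), MCM5 (-1.02) and SPT21 (-0.93), as 4P minus WT. Without any 1 of the courses, none of the 5 was called.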

How the results depend on the processing

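The number of genes called moved more than any direction. Without the replicate block 515 genes were called higher and 530 lower for the mean of both genotypes, 250 and 302 in 4P, and 223 and 195 in WT. With the arrays at 60 and 0 min alone, in the same block, the counts were 407 and 384 for the mean, 195 and 199 in 4P, and 186 and 137 in WT. The scanner's log ratio gave 366 and 388, 221 and 202, and 196 and 208 in the same order, and the authors' deposited table gave 359 and 396, 232 and 208, and 204 and 214. With the slide as a block beside the replicate block, 211 genes were called higher and 167 lower in WT. Without 1 course at a time, the mean gave 419 to 701 higher and 399 to 766 lower, lowest without WT replicate 2. In 4P these fits gave 198 to 405 higher and 215 to 518 lower, lowest without 4P replicate 2, and in WT 161 to 390 higher and 115 to 350 lower, lowest without WT replicate 2. Such fits also lose the balance of dyes, and a course left alone in its genotype is assumed to vary like the others.

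For the difference between genotypes, limma called 0 genes higher and 5 lower (200 at an unadjusted p of 0.05). It called 0 genes without the replicate block (113 unadjusted), with the 8 arrays alone (136), with the scanner's log ratio (472), with median centring (147) and with the authors' table (511). It called 1 gene with the slide as a block, 8 when the arrays of 4P replicate 1 at 15 and 105 min were left out, and 0 to 3 without 1 course. The 3 called without 4P replicate 1 did not include any of the 5.

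Of the 142 named genes, 133 kept direction and call without the replicate block and 9 lost the call; without WT replicate 2, 121 kept both and 18 lost the call. Those whose sign turned under some alternative were not called in the reported fit. TOS4 was -0.20 with the slide as a block and -0.19 to 0.36 without 1 course. WHI5, dim at 0 min, was 0.074 with the scanner's ratio, 0.17 with the authors' table, 0.000533 with the slide as a block and -0.092 to 0.033 without 1 course. HIS3 was 0.10 with the slide as a block and -0.88 to 0.084 without 1 course. ADE2 was -0.17 to 0.53, MCM5 -0.20 to 0.0058 and RPL30 -0.79 to 0.10 without 1 course. No filter and the stricter filter on dim probes changed no count by over 1.5 times. The cause of these changes was not tested.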

Other observations

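The 107 genes at least 2-fold higher and the 91 at least 2-fold lower at 60 min included 61 and 44 that stood in no list, and those named here were chosen after their values were seen. Genes of the plasma membrane domains called eisosomes and their companions were among the higher ones. NCE102 had levels of 1.28 and 0.76 in 4P and 0.71 and 0.96 in WT at 60 min, against -2.52 and -1.85 in 4P and -2.41 and -2.10 in WT at 0 min (difference 3.15, adjusted p = 5.9e-13). MRH1, a membrane protein, differed by 3.06, with a saturated spot on 2 arrays at 60 min, SUR7 by 2.43, EIS1 by 1.87 and PIL1, the core subunit, by 1.47. The polyamine exporters TPO4 and TPO3 differed by 2.09 and 1.59, and CAR2 and CAR1 of arginine breakdown by 1.69 and 1.40. MMR1, which passes mitochondria to the bud, differed by 2.55, and MSA1, a partner of SBF and MBF, by 1.22.

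Among the lower genes outside the lists, SCW10, a cell wall glucanase homologue, differed by -3.26 and PRY2, a secreted sterol-binding protein, by -2.98. The wall sensors WSC2 and MID2 differed by -1.68 and -1.11, RVS161, which acts in cell fusion, by -1.66, KCH1, a potassium transporter of the pheromone response, by -1.31, and PGU1, a pectinase, by -1.41. The a-factor methyltransferase gene STE14 differed by -1.06.

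Genes next to each other moved together more often than all genes did. Of the 104 higher genes with a place in the R64 table, 16 (15.4%) had a neighbour in the same set, against 3.60% of the 5724 placed genes. Of the 85 lower genes, 18 (21.2%) had one, against 2.97%. Examples are PRM6 at -5.74 beside PRP39 at -1.40, PRM3 at -4.66 beside MIY2 at -1.25, KAR4 at -4.09 beside PEX34 at -1.16, and STE2 at -1.85 beside GYP8 at -1.15. In the higher set, HOF1 at 3.67 stood beside EIS1 at 1.87 and CDC6 at 2.34 beside ELO1 at 1.42. Whether probes of such pairs share transcripts was not tested.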
